A study of Mus musculus with 6 samples.

Results

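The histone genes of the mouse testis transcriptome were followed in polyadenylated RNA from 6 whole testes. The members are every row of the deposited gene table whose symbol begins with Hist1h to Hist4h, H1f, H2af, H2bf or H3f, or is Hils1, which gave 84 genes of the 23361 tabulated. Of these, 32 held enough fragments to be tested between the groups, 35 had fragments but fell below the filter on low counts, and 17 had no fragment in any library. The testes came from 3 mice given the kinase inhibitor 1NaPP1-HCl (inhibitor group) and 3 mice given vehicle alone (control group), 1 library per mouse. All mice were C57BL/6J animals of about 120 days that were homozygous for Ret (V805A), a substitution that makes the GDNF receptor kinase Ret sensitive to this compound, so the controls carried it too and mice with an unsubstituted Ret that received the compound were not analysed here. Daily injections ran for 9 days and were followed by 5 days of recovery, and testes were collected on day 14.

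Histones package DNA into nucleosomes, with H2A, H2B, H3 and H4 forming the core and H1 binding the linker between cores. Replication-dependent histone genes are used in S phase, and their mRNAs normally end just after a conserved stem-loop in place of a poly(A) tail, whereas replacement histones such as H3.3 and H2A.Z are made from ordinary polyadenylated mRNAs throughout the cell cycle. The testis adds germ-cell histones (H1t, H1T2, HILS1, TH2A and TH2B among them) before most histones are replaced by transition proteins and then protamines in elongating spermatids. A library made after poly(A) selection sees a histone mRNA only if it carries a tail, so the values below are levels of polyadenylated RNA and not of all histone RNA or of protein.

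The sequence that separates the histone mRNA classes was read from the annotated transcripts of GENCODE M21 (GRCm38, the same assembly as mm10). The stem-loop was searched as GG, any 2 bases, CTT, any base, T, any base, A, any 2 bases and GCC on the transcript's own strand after the stop codon, and a poly(A) signal as AATAAA or ATTAAA in the last 40 bases of the transcript. The stem-loop letters were present in 46 of the 84 histone genes. Other genes were searched over the whole transcript, coding part included, so their count does not rest on the same search. The letters were present in 136 of them, and together these are 0.33% of the 55341 annotated genes. The examples below were chosen because they carry the stem-loop and were nevertheless seen in polyadenylated RNA; capitals mark the 16 letters of the stem-loop, and 5 bases on either side are shown.

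Hist1h2bp (chr13:21787918-21787943, plus strand): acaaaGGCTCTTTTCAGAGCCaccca
Hist3h2a (chr11:58955167-58955192, plus strand): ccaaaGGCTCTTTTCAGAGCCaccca
Hist1h4a (chr13:23760795-23760820, minus strand): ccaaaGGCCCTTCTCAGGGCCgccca
Hist1h1t (chr13:23696520-23696545, plus strand): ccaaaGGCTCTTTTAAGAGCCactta
H2afx (chr9:44335235-44335260, plus strand): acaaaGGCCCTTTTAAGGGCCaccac

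In 4 of these the annotated transcript runs on past the stem-loop to an end with a poly(A) signal: by 1643 bases in Hist3h2a, 822 in H2afx, 185 in Hist1h1t and 108 in Hist1h4a. Hist1h2bp, which encodes a canonical H2B, is annotated with a pair of transcripts. One, of 469 bases, ends 38 bases past the stem-loop and has no poly(A) signal; the other, of 621 bases in 2 exons, lacks the stem-loop and has AATAAA 23 bases before its end. A match of letters is a description of the annotated sequence and not a measured RNA end.

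Across all 84 genes, histones took 0.292%, 0.276% and 0.255% of the fragments of inhibitor mice 2, 1 and 3, and between 0.255% and 0.264% of those of the control mice. The 6 most abundant members (H1fnt, Hils1, H3f3b, H3f3a, H2afz and H2afb1) held 87.7% of all histone CPM, meaning counts per 1e+06 fragments after scaling for library size and composition. By role, the testis linkers held 41.5% to 42.9% of histone CPM in inhibitor testes and 41.8% to 42.0% in control testes. The H3 replacement genes held 30.8% to 32.2% in inhibitor testes and 31.2% to 32.4% in control testes, and the H2A replacement genes held 14.8% to 15.1% in inhibitor testes and 14.6% to 15.2% in control testes. Hist1h1a to Hist1h1e were counted with the other linkers, although Hist1h1c, Hist1h1d and Hist1h1e carry the stem-loop. The replication-dependent class is thus core histone genes alone, with the pseudogene row Hist3h2bb-ps among them. Its 60 genes together held 3.05% to 3.15% in inhibitor testes and 2.88% to 3.14% in control testes. Polyadenylated histone RNA in these testes was therefore mostly that of a few germ-cell and replacement histones, in both groups.

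**Figure D1:**
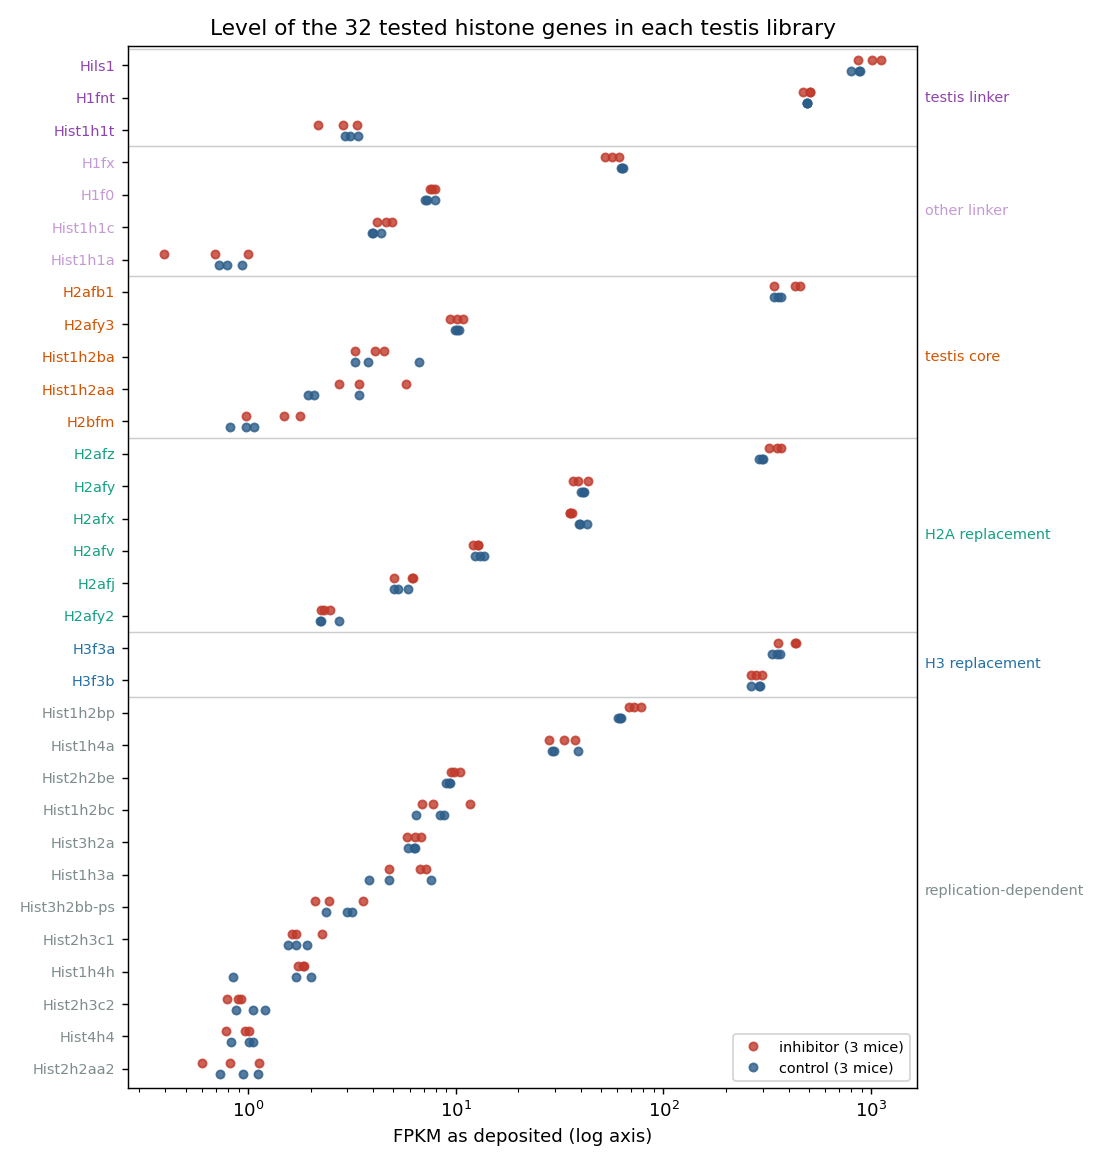
FPKM (fragments per kilobase and library size, as deposited, log axis) of the 32 tested histone genes, grouped by role; each point is 1 library, with the 3 inhibitor testes (red) drawn above the 3 control testes (blue) in each row. The testis linkers Hils1 and H1fnt lie highest, and Hist1h1t, another testis linker, lies near 3 FPKM.

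Levels were compared between genes on the deposited FPKM, which is scaled by length. Hils1, the spermatid linker-like histone, came first at 996 ± 129 FPKM in inhibitor testes and 850 ± 43.7 in control testes (SD, n = 3 each). H1fnt, the gene of H1T2, a linker of round and elongating spermatids, followed at 495 ± 21.4 FPKM in inhibitor testes and 490 ± 2.15 in control testes. H2afb1, H3f3a, H2afz and H3f3b formed the next group, with control means of 355, 350.0, 296 and 281 FPKM. H1fx came next at 63.4 FPKM in control testes, and Hist1h2bp, at 61.6 FPKM, was the highest replication-dependent gene. Of the 31 pairs of neighbours in this order, the control libraries of 14 pairs did not overlap and those of 17 pairs did, so that H2afb1 and H3f3a, H2afz and H3f3b, and H2afy and H2afx could not be ordered.

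The length behind an FPKM matters for genes this short. Over the 15548 tested genes with an annotated length, the deposited FPKM was a median of 1.13 times the CPM per kilobase of the longest annotated transcript, and over the 115 of these shorter than 500 bases it was 1.82 times. Hist1h4a, a canonical H4 gene, stood at 32.6 ± 5.45 FPKM in control testes although its level was 3.77 CPM. Its FPKM correspond to 116 bases where the annotated transcript has 539, so its place in the order rests on that scaling. The order among the abundant members rests on it too: per kilobase of the longest annotated transcript, as a mean over the 6 libraries, H2afb1 stood at 232 CPM, H2afz at 232, H3f3b at 203 and H3f3a at 119, below Hils1 at 647 and H1fnt at 431.5. The longest annotated transcript of H3f3a has 2841 bases, while its FPKM correspond to 891. Its lower place by the longest transcript therefore comes from that length, which is not the one behind the deposited FPKM.

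The name H2afb1 also needed a check, because RefSeq gives it as an older name of both H2al2a on chromosome 2 (542 bases) and H2ab1 on the X chromosome (348 bases). The table has a separate row under Gm14920, another name of H2ab1, with 1.44 ± 0.110 CPM in inhibitor testes and 1.35 ± 0.0519 CPM in control testes. The fragments and FPKM of the H2afb1 row correspond to 330 bases, close to the 339 bases of Hist1h3a, whose transcript is annotated with 534, while those of the Gm14920 row correspond to 150 bases. The H2afb1 row was therefore read as H2al2a, a short H2A of condensing spermatids, and its length and sequence were taken from that gene.

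No histone gene passed the adjusted threshold between inhibitor and control testes: 0 of the 32 tested, against 0.156% of the 16658 genes tested over the whole table (edgeR's quasi-likelihood test, two-sided, Benjamini-Hochberg adjusted p under 0.05). At an unadjusted p under 0.05 there were 4 histone genes higher in inhibitor testes (H2afz, Hist1h2bp, H3f3a and Hils1; 9.43% of all tested genes) and 2 lower (H2afx and H1fx; 8.48% of all), against 17.9% of all tested genes in either direction, so that the histone share was near the background. Groups that did not overlap were found for 5 of the 32, with H2afz, Hist1h2bp and Hist2h2be higher and H2afx and H1fx lower in inhibitor testes, against 22.9% of all tested genes. The median log2 fold change was 0.02 over the 32 histone genes and -0.004 over all tested genes, and 18 of the 32 lay above 0, against 49% of all. DESeq2 called 1 histone gene, H2afz, of the 17 for which it gave an adjusted p. It called 4.48% of all genes with one, 3.08% as higher and 1.4% as lower.

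**Figure D2:**
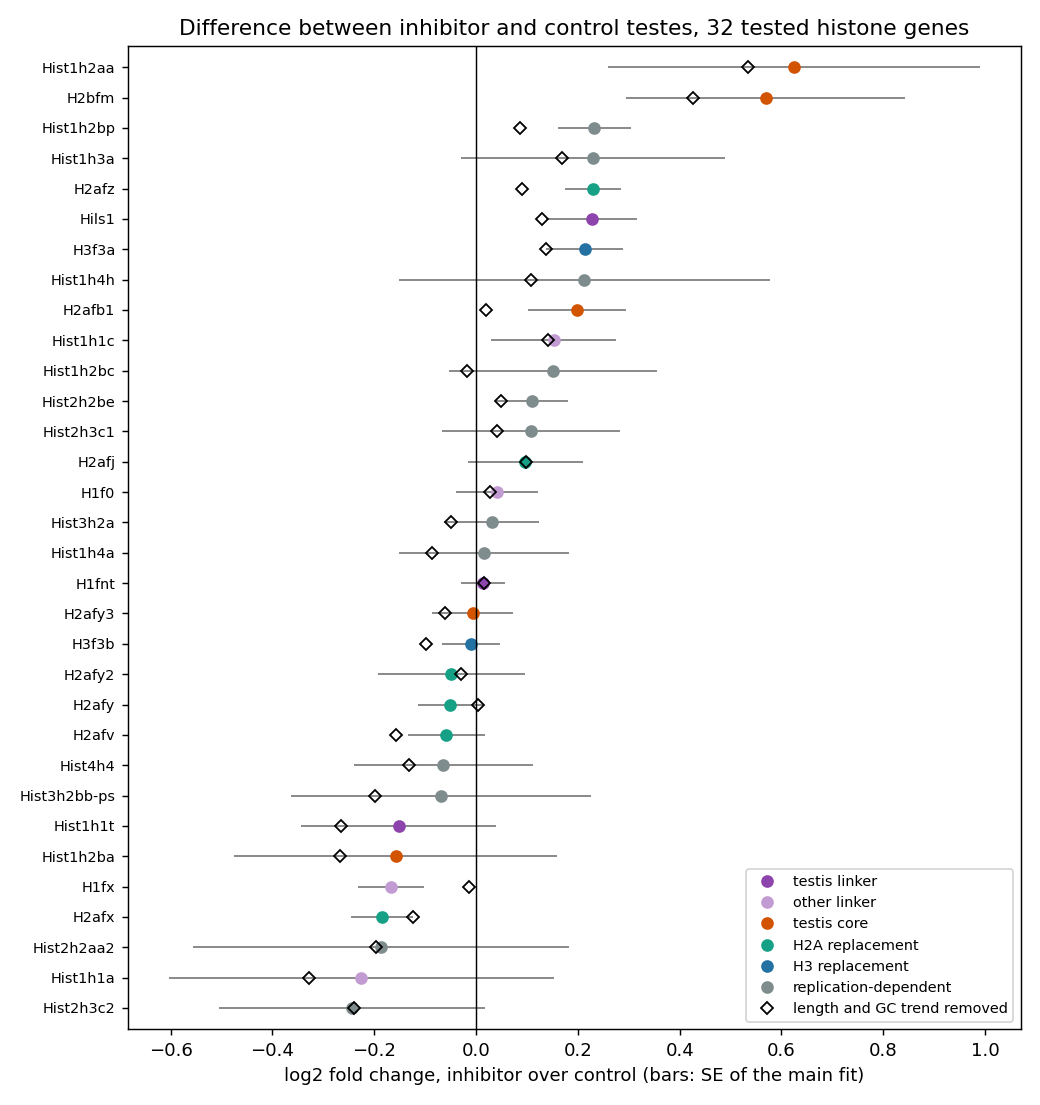
log2 fold change, inhibitor over control, of each of the 32 tested histone genes in the edgeR fit (coloured points by role, bars are the SE), with the value after a per-library trend on length and GC content was taken out (open diamonds). Most values lie between -0.3 and 0.3, and the diamonds of H2afz, Hist1h2bp, H2afb1 and H1fx lie closer to 0 than their points.

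In a fit that modelled transcript length and GC content, 19 of the 32 members lay nearer 0 and 13 farther from it. With a trend on length and GC content taken out of each library, 16 of the 32 histone genes lay above 0, the median was -0.005, and no histone gene passed the threshold. H2afz then stood at 0.09 in place of 0.23, Hist1h2bp at 0.09 in place of 0.23, H2afb1 at 0.02 in place of 0.20, and H1fx at -0.01 in place of -0.17. Values farther from 0 included those of H2afv, at -0.16 in place of -0.06, H3f3b, at -0.10 in place of -0.01, Hist1h1t, at -0.26 in place of -0.15, and Hist1h2ba, at -0.27 in place of -0.16.

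Among the testis linkers, Hils1 had 614, 677 and 519.6 CPM in inhibitor mice 1, 2 and 3, against 531.5, 487 and 528 CPM in the control mice. Inhibitor mice 1 and 2 lay above all controls and inhibitor mouse 3 lay among them. On the log2 scale the groups differed by 0.23 (SE 0.090, adjusted p = 0.242, edgeR), and 0.13 with the length and GC trend removed. Hils1 (chr11:94967593-94968456) overlaps Sgca on the opposite strand, and no source used here gives the strand setting of the counting, so reads of the pair may not be separated.

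H1fnt had 539.9, 579.5 and 582 CPM in inhibitor testes, against 559.5, 562 and 564 CPM in control testes. The groups overlapped, at a log2 fold change of 0.01 (SE 0.044), the smallest SE among the members. Hist1h1t, the gene of H1t, the linker of pachytene spermatocytes, had 2.43, 1.57 and 2.06 CPM in inhibitor testes, against 2.44, 2.14 and 2.25 CPM in control testes. Its FPKM in polyadenylated RNA were 140-fold to 232-fold under those of H1fnt over the 6 libraries. Whether little H1t mRNA was present or little of it carried a tail cannot be told apart in libraries of this kind.

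Of the other linkers, H1fx, a replication-independent H1 of many tissues, had 49.5, 45.8 and 53.2 CPM in inhibitor testes, against 54.9, 56.4 and 55.6 CPM in control testes. All inhibitor values lay below all control values, and the log2 ratio of the groups was -0.17 (SE 0.064, adjusted p = 0.201, edgeR). H1f0, the linker of non-dividing cells, averaged 16.4 ± 0.424 CPM in inhibitor testes and 15.9 ± 0.9995 CPM in control testes, and the groups overlapped. Hist1h1c had 5.77, 6.87 and 6.37 CPM in inhibitor testes, against 5.53, 6.06 and 5.44 CPM in control testes, also overlapping. Hist1h1a had 0.219 to 0.556 CPM in inhibitor testes and 0.400 to 0.524 CPM in control testes. Hist1h1b, Hist1h1d, Hist1h1e and the oocyte linker H1foo had fragments but fell below the filter.

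H2afz encodes H2A.Z, which replaces H2A at promoters and enhancers. It had 271, 284 and 247 CPM in inhibitor mice 1, 2 and 3, against 232, 222 and 229.8 CPM in control mice. Every inhibitor testis lay above every control testis, with a log2 fold change of 0.23 (SE 0.055, adjusted p = 0.093, edgeR), the smallest p of the 32. DESeq2 gave an adjusted p of 0.019 for it, and over all alternatives run its adjusted p ranged between 6.8e-04 and 0.345. Of the read-length windows of its transcripts, 27.6% have an identical copy in another gene.

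H2afx encodes H2A.X, the H2A that is phosphorylated at DNA breaks and over the sex chromosomes of spermatocytes. It had 42.9, 41.8 and 41.8 CPM in inhibitor testes, against 46.5, 51.0 and 46.2 CPM in control testes. The inhibitor values lay below all control values, at a log2 fold change of -0.18 (SE 0.062, adjusted p = 0.154, edgeR), and -0.12 with the length and GC trend removed. H2afx is the replacement gene among the members that carries a stem-loop, shown above, as well as a tail signal.

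The remaining H2A replacement genes overlapped between groups. H2afy, the gene of macroH2A1, had 65.7, 77.2 and 69.3 CPM in inhibitor testes, against 73.9, 73.8 and 71.8 CPM in control testes. H2afv, a further H2A.Z gene, averaged 18.4 ± 0.573 CPM in inhibitor testes and 19.1 ± 0.998 CPM in control testes. For both, and for H2afj (8.36 to 10.3 CPM in inhibitor testes, 8.37 to 9.76 in control testes) and H2afy2 of macroH2A2 (3.88 to 4.31 CPM in inhibitor testes, 3.85 to 4.81 in control testes), no difference larger than the spread between mice was found.

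H3f3a and H3f3b both encode H3.3, the replacement H3. H3f3a had 388, 383 and 315 CPM in inhibitor mice 1, 2 and 3, against 324, 299.5 and 313 CPM in control mice. Inhibitor mice 1 and 2 lay above all controls and inhibitor mouse 3 within them, with a log2 fold change of 0.21 (SE 0.075, adjusted p = 0.185, edgeR). H3f3b had 507, 544 and 477 CPM in inhibitor testes, against 525, 482 and 533 CPM in control testes, overlapping throughout at a log2 fold change of -0.01 (SE 0.056). The difference between the fold changes of H3f3a and H3f3b was not tested.

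Among the testis core histones, H2afb1 had 142, 149.9 and 112 CPM in inhibitor mice 1, 2 and 3, against 117, 113 and 121 CPM in control mice. Inhibitor mice 1 and 2 were again above all controls, and inhibitor mouse 3 was below them all (log2 fold change 0.20, SE 0.096, adjusted p = 0.320, edgeR). H2bfm, an X-linked H2B of the testis, had 1.29, 1.53 and 0.840 CPM in inhibitor testes, against 0.841, 0.706 and 0.918 CPM in control testes, a log2 fold change of 0.57 with an SE of 0.27. The row H2afy3, annotated as a processed pseudogene that overlaps Pvt1 on the opposite strand, averaged 17.6 ± 1.26 CPM in inhibitor testes and 17.7 ± 0.414 CPM in control testes, and the groups overlapped.

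Hist1h2ba and Hist1h2aa, the genes of TH2B and TH2A, had few counted fragments in polyadenylated RNA. Hist1h2ba had 22, 14 and 24 fragments in inhibitor testes, against 31, 31 and 18 fragments in control testes. Hist1h2aa had 32, 15 and 15 fragments in inhibitor testes, against 10, 29 and 11 fragments in control testes. Neither differed beyond its spread (log2 fold change -0.16 with SE 0.32 for Hist1h2ba and 0.62 with SE 0.37 for Hist1h2aa). Both are annotated without a 3′ UTR, so the stem-loop could not be looked for. Fragments and FPKM correspond to 186 bases in Hist1h2ba and 192.5 in Hist1h2aa, annotated with 384 and 390. Reads in a 3′ UTR may therefore not have been counted. Of the read-length windows of Hist1h2ba, 31.9% have an identical copy in another gene. They stand head to head on chromosome 13 and share a promoter, which is printed because it holds 3 of the 4 sets of letters searched (RefSeq, GRCm38.p6, read in the direction of Hist1h2ba, chr13:23934240-23934380, minus strand; capitals mark CCAAT or its reverse complement ATTGG, ATTTGCAT and TATAAA).

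Hist1h2ba promoter: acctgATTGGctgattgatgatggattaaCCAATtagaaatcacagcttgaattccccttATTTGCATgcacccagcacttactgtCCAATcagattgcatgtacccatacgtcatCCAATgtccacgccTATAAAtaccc

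Such letters recurred over the family. In windows of 300 bases (250 before to 50 after the gene start) for the 76 histone genes with a promoter in the RefSeq table, both strands searched, CCAAT was present in 81.6%, against 37.9% of all 27025 promoters of that length. TATAAA was present in 47.4%, against 14.2%, and the octamer ATTTGCAT, the motif of the H2B octamer factor Oct1, in 18.4%, against 1.8%. The cAMP response letters TGACGTCA were present in 5.3%, against 1.9%. Windows of divergent gene pairs, such as Hist1h2ag and Hist1h2bj, can overlap, so the same stretch may count for both genes. By role, TATAAA was in 29 of 55 replication-dependent promoters, Hist1h2be entering with a pair of them, and in 0 of 5 H2A replacement promoters. The 3 testis linker promoters, those of the most abundant histone genes here among them, held no TATAAA and no ATTTGCAT.

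Of the 60 replication-dependent core histone genes, 12 passed the filter, 31 had fragments below it and 17 had none. They lie mostly in the clusters on chromosome 13 (46 genes) and chromosome 3 (10 genes). Hist1h2bp, Hist2h2be and Hist3h2a made up 75.4% of their summed CPM, and the whole class summed to 85.5 ± 4.66 CPM in inhibitor testes and 78.1 ± 2.57 CPM in control testes (SD, n = 3 each).

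Most of the summed CPM of the class came from genes whose annotated transcript has a poly(A) signal, while genes without one were the larger number. A signal stood at the end of a transcript of 15 of the 60 genes, of which 7 were tested and which summed to 72.1 CPM, a mean over the 6 libraries. The 45 genes without one had 5 tested genes and summed to 9.76 CPM. Any fragment at all was assigned to 13 genes with a signal and 30 without. Among the 40 genes that carry the stem-loop, the 11 with a signal as well had 6 tested genes and a median of 0.471 CPM, and the 29 without a signal had 3 tested genes and a median of 0.0117 CPM. The exceptions among genes with neither feature were Hist1h2bc, an H2B gene, at 3.67 to 6.30 CPM in inhibitor testes and 3.43 to 4.69 CPM in control testes, and the pseudogene Hist3h2bb-ps. Of the 20 genes without the stem-loop letters, 13 are annotated with at most 2 bases of 3′ UTR, where the letters could not be found. These are descriptions of the class in these libraries, with no test, and the annotation of a long 3′ end may itself come from polyadenylated transcripts. The gene models behind the deposited counts may also be shorter than the annotation used here. Fragments and FPKM correspond to 116 bases in Hist1h4c, Hist1h4d and Hist1h4j, annotated with 820, 1138 and 774 bases. They correspond to 116 bases in Hist1h4k too, annotated with 312. Reads in such longer ends may not have been counted, which limits the comparison of CPM between kinds of 3′ end.

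**Figure D3:**
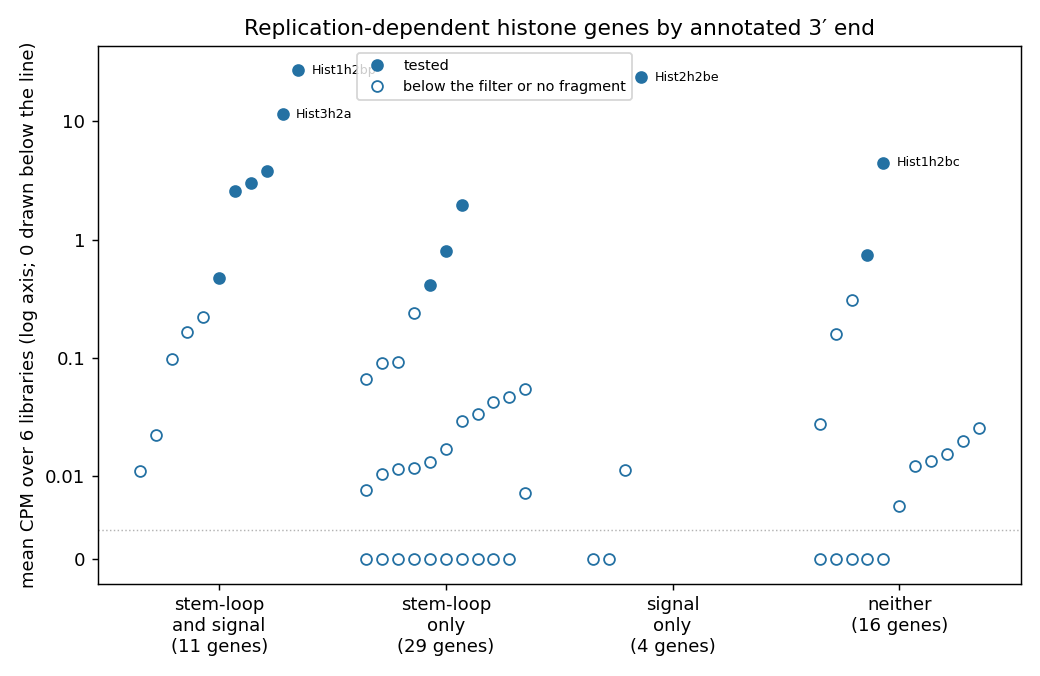
Mean CPM over the 6 libraries (log axis, 0 drawn below the dotted line) of the 60 replication-dependent core histone genes, split by whether an annotated transcript holds the stem-loop letters, a poly(A) signal in its last 40 bases, both or neither. Filled points passed the filter on low counts. The genes above 10 CPM (Hist1h2bp, Hist2h2be and Hist3h2a) all have a transcript with a signal, and the 29 genes with the stem-loop alone lie at or below 1.97 CPM. In some genes fragments may have been counted over models shorter than the annotated ends.

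Hist1h2bp had 31.1, 28.7 and 27.1 CPM in inhibitor mice 1, 2 and 3, against 24.7, 25.1 and 24.1 CPM in control mice. All inhibitor values lay above all control values, with a log2 fold change of 0.23 (SE 0.072, adjusted p = 0.133, edgeR). Its fragments and FPKM correspond to 400.1 bases, under the length of either annotated transcript. Such lengths fell below the annotated ones in other short genes too. They were 421 bases in Hist1h2bg, annotated with 618, and 269 bases in Hist3h2bb-ps, annotated with 465. The value of Hist1h2bp is thus nearer to that of a gene as long as its longer transcript, but the table does not say which of the pair was read. Of its read-length windows, 36.3% are also found in another gene, so part of its count may come from other H2B genes.

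Hist2h2be, an H2B gene annotated with 2620 bases, no stem-loop and an AATAAA, had 23.4, 25.9 and 24.0 CPM in inhibitor testes, against 23.0, 22.9 and 22.0 CPM in control testes. The groups did not overlap, yet the log2 fold change of 0.11 (SE 0.070, adjusted p = 0.440, edgeR) was small. Hist3h2a, an H2A gene, had 10.6, 12.4 and 11.5 CPM in inhibitor testes, against 11.6, 11.5 and 10.7 CPM in control testes, which overlapped. Hist3h2a overlaps Trim17 on the same strand, so reads of the pair may not be separated. None of the 9 other tested replication-dependent genes separated the groups. Their highest was Hist1h2bc, followed by the H4 gene Hist1h4a (3.24 to 4.30 CPM in inhibitor testes, 3.37 to 4.49 in control testes), the H3 gene Hist2h3c1 (2.69 to 3.76 CPM in inhibitor testes, 2.59 to 3.16 in control testes) and the H4 gene Hist4h4 (2.13 to 2.76 CPM in inhibitor testes, 2.28 to 2.88 in control testes).

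**Figure D4:**
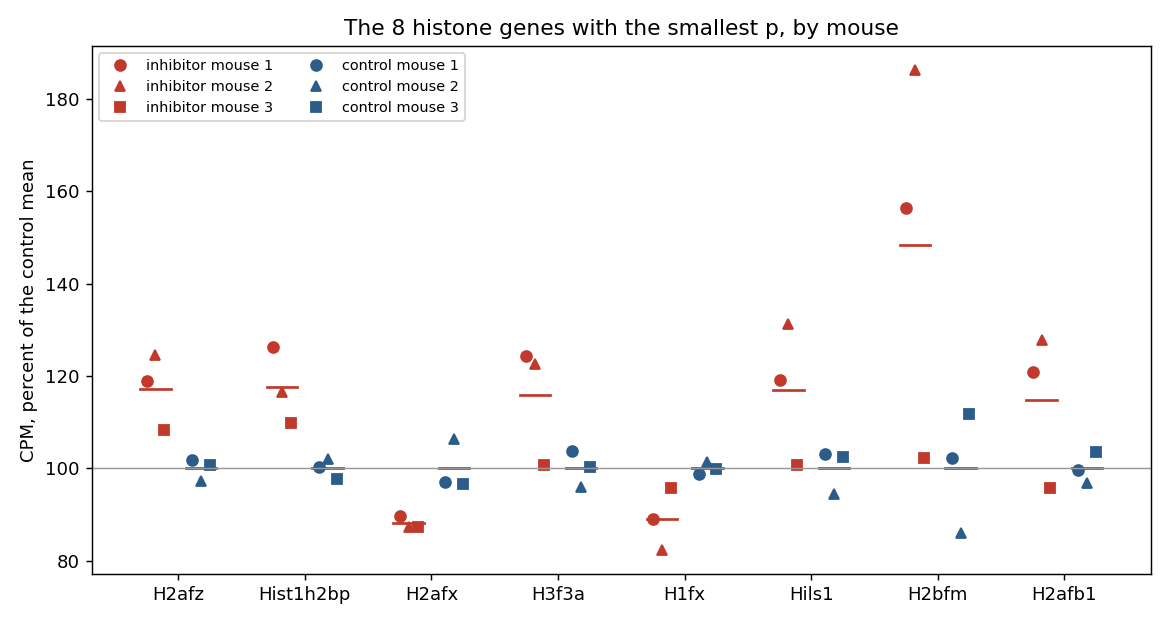
CPM of each mouse as a percent of the control mean for the 8 histone genes with the smallest p; symbols mark the mouse number, inhibitor testes (red) stand left of control testes (blue), and horizontal bars are group means. Inhibitor mouse 3 (square) is the inhibitor value nearest to the control mean in 7 of the 8, the exception being H2afx.

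One library decided how many histone genes were called. Without inhibitor mouse 3, 5 histone genes passed the adjusted threshold as higher (H2afz, H3f3a, Hils1, H2afb1 and Hist1h2bp, log2 fold changes 0.28, 0.30, 0.32, 0.31 and 0.28) and H1fx as lower (-0.22), all by edgeR. In that fit 14.3% of all tested genes were called, 8.71% as higher and 5.54% as lower. Leaving out any of the other 5 mice left 0 histone genes called. The labels give no litter, batch or date that separates inhibitor mouse 3 from the others.

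The members also differed in how much sequence they share with other genes. Each annotated transcript was read in windows of 81 bases, the read length, and a window was counted as shared where the same bases occur at another locus among annotated transcripts. The 17 genes with no fragment had a median of 84.3% shared windows (44.0% to 96.0%), the 35 genes below the filter 21.7%, and the 32 tested genes 2.15%. They include Hist1h2bq and Hist1h2br, whose annotated transcripts do end in a poly(A) signal but share 95.8% and 87.3% of their windows. No source used here says how reads that match several places were handled, so an entry of 0 for these genes says only that no fragment was assigned. Hist2h2aa2 and Hist2h3c2, with 100% and 62.3% of windows shared, were tested but their counts cannot be assigned to 1 gene with certainty. Hist1h1e and Hist1h2be overlap on the same strand and were the 2 members with fractional counts.

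**Figure D5:**
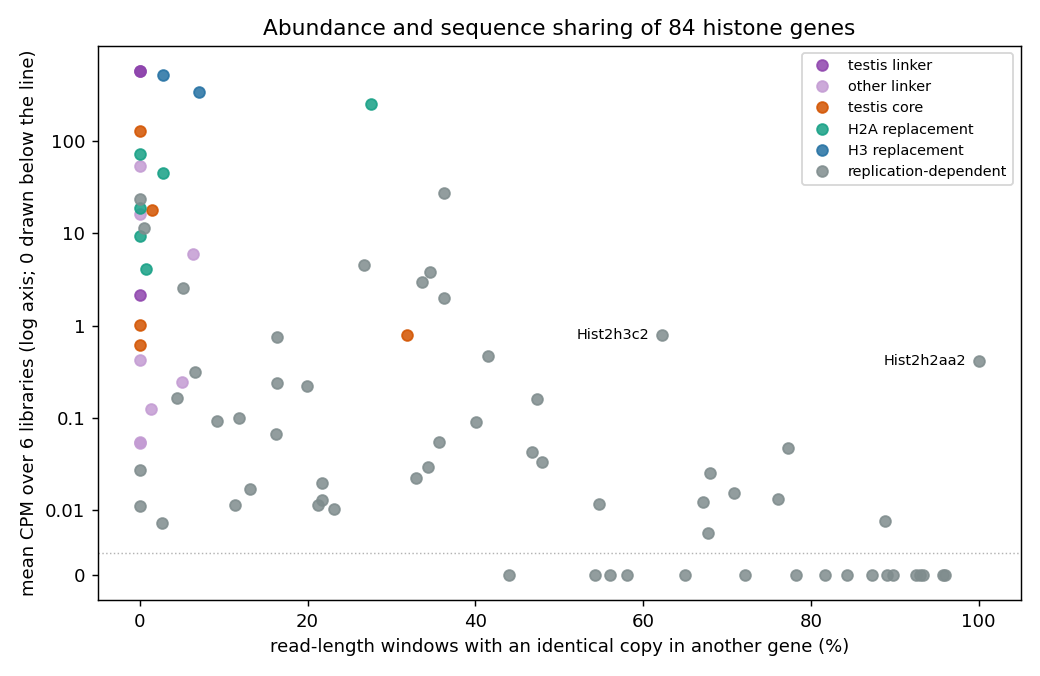
Mean CPM over the 6 libraries (log axis, 0 drawn below the dotted line) of all 84 histone genes against the percent of read-length windows of their transcripts with an identical copy at another locus, coloured by role. The 17 genes with no fragment lie at 44.0% or more, and Hist2h2aa2 and Hist2h3c2 are the tested genes above 50%.

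Factors that make, carry or remove histones were examined as lists, counted over the genes tested in the same fit. Of 25 genes of histone mRNA 3′ end processing and decay, 13 were above 0 and 12 below, with 0 called and a median of 0.01. The smallest p belonged to Cpsf1, a subunit of the cleavage and polyadenylation specificity factor, at 84.6, 84.8 and 92.7 CPM in inhibitor testes, against 98.2, 98.2 and 97.7 CPM in control testes (log2 fold change -0.17, adjusted p = 0.147, edgeR). Snrpb (62.8 ± 1.46 CPM in inhibitor testes, 70.3 ± 1.99 in control testes) and the decay helicase Upf1 (142 ± 1.41 CPM in inhibitor testes, 155 ± 1.24 in control testes) came next; that of Upf1 was 0.00 with the length and GC trend removed.

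Of 33 histone chaperone genes tested, 10 were above 0 and 23 below, with 0 called and a median of -0.04. Cabin1, a subunit of the HIRA complex that deposits H3.3, had 39.7, 32.02 and 37.8 CPM in inhibitor testes, against 47.7, 46.1 and 46.3 CPM in control testes (log2 fold change -0.35, adjusted p = 0.083, edgeR). Mcm2, part of the replicative helicase and a carrier of H3 and H4, averaged 9.36 ± 2.05 CPM in inhibitor testes and 13.7 ± 1.97 CPM in control testes. Npm1 ran the other way at 310.2 ± 11.8 CPM in inhibitor testes and 282 ± 5.03 CPM in control testes, and at -0.01 with the length and GC trend removed. DESeq2 called Cabin1 and Mcm2 (adjusted p 0.0094 and 0.025); with the length and GC trend removed Cabin1 stood at -0.18 (adjusted p = 0.235, edgeR) and Mcm2 at -0.51 (adjusted p = 0.179).

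Of 19 genes of the histone-to-protamine exchange, 12 were above 0 and 7 below, with 0 called and a median of 0.06. Prm2, a protamine, had 4640, 4467 and 4601 CPM in inhibitor testes, against 3904, 4226 and 4142 CPM in control testes, which did not overlap (log2 fold change 0.16, adjusted p = 0.104, edgeR). With the length and GC trend removed, Prm2 stood at 0.08 (adjusted p = 0.541, edgeR). Brdt, the testis bromodomain protein that binds acetylated histones of spermatids, averaged 410.1 ± 11.6 CPM in inhibitor testes and 376 ± 3.35 CPM in control testes. Its log2 fold change was 0.13, and 0.14 with that trend removed.

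Of 38 S phase genes, 16 were above 0 and 22 below, with 0 called and a median of -0.03. The proliferation marker Mki67 had 32.6, 30.9 and 29.6 CPM in inhibitor testes, against 45.2, 36.9 and 39.8 CPM in control testes (log2 fold change -0.38, adjusted p = 0.078, edgeR). E2f1 averaged 3.66 ± 0.357 CPM in inhibitor testes and 5.28 ± 0.358 CPM in control testes, while Gins1 averaged 23.6 ± 1.43 CPM in inhibitor testes and 19.2 ± 0.998 CPM in control testes. Histone genes outside the symbol rule gave 6 above 0 and 1 below of 7 tested, with 0 called. The row 1700024P04Rik, which RefSeq names H2bl1, an H2B-like gene, had 128, 139.5 and 113 CPM in inhibitor testes, against 96.6, 96.3 and 111 CPM in control testes (log2 fold change 0.33, adjusted p = 0.104, edgeR), and 0.07 with the length and GC trend removed. Cenpa, the centromeric H3, averaged 2.84 ± 0.465 CPM in inhibitor testes and 3.71 ± 0.252 CPM in control testes.

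Cell markers were counted in the same fit. Of 15 markers of undifferentiated spermatogonia tested, 12 were below 0 and 4 of these passed the adjusted threshold as lower in inhibitor testes (Ret, Sox3, Zbtb16 and Lin28a), against 0.096% of all tested genes called lower. Ret averaged 0.579 ± 0.0858 CPM in inhibitor testes and 2.17 ± 0.294 CPM in control testes. The list summed to 102 to 119 CPM in inhibitor testes and 132 to 136 CPM in control testes. Of 8 markers of differentiating spermatogonia, 7 were below 0 and 1 was called lower, against the same 0.096%. Their median log2 fold change was -0.41, and -0.40 with the length and GC trend removed. Their sum was 592 to 630 CPM in inhibitor testes and 581 to 586 CPM in control testes. The sum thus ran against 7 of the 8 markers and does not stand for them. Below 0 were also 12 of 15 Sertoli markers, 7 of 9 Leydig markers and all 10 peritubular and endothelial markers, with 0 called. Of 12 elongating spermatid markers, 11 were above 0 and 0 were called, summing to 21990, 23470 and 23550 CPM in inhibitor mice 3, 2 and 1, against 20290 to 21310 CPM in control testes. Round spermatid markers summed to 2394, 2343 and 2164 CPM in inhibitor mice 1, 2 and 3, against 2098 to 2229 CPM in control testes. Spermatocyte markers summed to 7478, 7616 and 7232 CPM in inhibitor mice 1, 2 and 3, against 6647 to 6946 CPM in control testes, with 13 of 15 above 0 and 0 called. Blood and immune markers summed to 426, 451 and 418 CPM in inhibitor mice 1, 2 and 3, against 377 to 382 CPM in control testes. In the elongating spermatid, round spermatid, spermatocyte, and blood and immune lists, as in Hils1, H3f3a and H2afb1, inhibitor mouse 3 was the lowest of the inhibitor testes. By these sums, it was the highest of them in the lists of undifferentiated spermatogonia (119 CPM) and differentiating spermatogonia (630 CPM). The same held for Sertoli markers (1913 CPM) and for peritubular and endothelial markers (181 CPM). In the Leydig list it lay between the other inhibitor mice. With the length and GC trend removed, the median log2 fold change was 0.02 in place of 0.13 for spermatocyte markers, with 10 of 15 above 0, and 0.05 in place of 0.14 for elongating spermatid markers. No marker of these lists was at 0 in all libraries. Their part in the histone values was not tested, and in whole testes fewer cells of a type and less RNA per cell cannot be told apart.

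Depth did not limit the abundant members: library totals were 23144295 to 29069387 fragments in inhibitor testes and 24788698 to 43127890 in control testes, so that 1 CPM was at least 23 fragments. The common biological coefficient of variation was 8.0%. The members below the filter had at most 57 fragments over the 6 libraries and the tested ones at least 75. For members under about 1 CPM the SE of the log2 fold change was large (0.26 to 0.38 in Hist1h1a, Hist1h2aa, Hist1h2ba, H2bfm and Hist2h3c2). Changes well above such an SE can go uncalled: H2bfm, at 0.57 with an SE of 0.27, had an adjusted p of 0.300 (edgeR).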

How the data were processed

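Whole-testis polyadenylated RNA of 6 mice was sequenced as single-end reads of 81 nt from 500 ng of total RNA, per the labels' protocols. Tools named by the submitters' processing notes are Cuffdiff 2.2.1, TopHat2 2.0.13 and cutadapt 1.8, with the build mm10; what each was used for, the annotation and the strand setting are not stated there. The deposited table holds estimated counts of fragments per gene and library before any library scaling (98.8% whole within 1e-06; 2 members had fractional values), which were rounded, and the FPKM scaled by the authors' software. Replicates are the mice of each group, by the labels. All 23361 genes were fitted in edgeR 4.0.16 (R 4.3.3; filterByExpr, TMM, robust quasi-likelihood F-test, two-sided, Benjamini-Hochberg adjustment at 0.05 over 16658 genes); CPM are TMM-scaled. Fold changes are inhibitor over control. Alternatives were DESeq2 1.42.0, limma 3.58.1 (voom, and log2(FPKM + 1) or log2(FPKM + 0.1)), other scalings and filters, removal of the 50 most abundant genes, a length and GC trend (loess, span 0.5, as an offset), the mouse number as a block, and each mouse left out. The fit was tested on simulated data for 16658 genes: 68% of 100 genes changed 1.5-fold and 98% of 100 changed 3-fold were called, with 5 false calls of 171. The simulated spread depended on abundance alone, with no length and GC trend and no library that stands apart. These shares are therefore not those of the fit on the real mice. Positions, transcripts and windows are from GENCODE M21, promoters and older names from RefSeq (76 of 84 members matched a promoter).

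The members and lists were chosen with earlier results of these data known. Named are the tested members of the linker, testis core and replacement classes, replication-dependent members of at least 10 CPM, the 8 members with the smallest p, and for each other list the genes past the threshold or else the 3 with the smallest p. Further replication-dependent genes, the pseudogene row and the shared genes are named as examples chosen after their values were seen. Members that a result turns on are given in every library, the others by range or mean. One gene that this rule names is not reported here.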

Additional observations from a re-analysis of the deposited data

How the results depend on the processing

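The histone counts were 0 higher and 0 lower under every alternative except DESeq2 (1 higher) and the fit without inhibitor mouse 3; over leaving out each mouse they ranged between 0 and 5 higher and between 0 and 1 lower. Over all genes, where the main counts were 10 higher and 16 lower, the calls were 4 higher with library totals alone, 58 higher and 57 lower with no filter on low counts, 3 higher and 7 lower with at least 50 counts in 3 libraries, 363 higher and 165 lower by DESeq2, 3 higher by limma-voom, 0 higher and 0 lower on log2(FPKM + 1), 0 higher and 1 lower on log2(FPKM + 0.1), and 0 to 1470 higher and 0 to 935 lower over leaving out each mouse. With the mouse number as a replicate block they were 0 higher and 5 lower, with 0 histone genes; deviations of mice numbered alike correlated at 0.062, -0.116 and -0.020, so the numbers were not taken to pair the mice. Of 387 values of 23 named members under the alternatives, 363 kept their direction and side of the threshold, 7 passed it and 17 changed sign. Signs changed with library totals alone in H1fnt (-0.0173) and Hist3h2a (-5.7e-04), and with the length and GC trend removed in H2afy (0.0029), Hist3h2a (-0.0499), and in Upf1 (0.0012) and Npm1 (-0.0129). Over leaving out each mouse, the log2 fold change ranged between -0.0059 and 0.0479 in H1fnt, between -0.117 and 0.00034 in H2afy, between -0.104 and 0.0737 in H2afy2, between -0.0566 and 0.0443 in H2afy3, between -0.0595 and 0.0345 in H3f3b, between -0.578 and 0.0232 in Hist1h1a, between -0.323 and 0.164 in Hist1h2ba and between -0.0229 and 0.0851 in Hist3h2a. The cause was not tested. In an alternative added after the data were seen, CPM per kilobase of the longest annotated transcript in place of FPKM, the levels of 22 named members moved by more than their spread, with H3f3a at 119 in place of 378 and H3f3b at 203 in place of 280.1. For H3f3a the longest annotated transcript has 2841 bases, while the deposited FPKM correspond to 891. Low fragment counts limit Hist1h2aa, Hist1h2ba and Hist1h1a.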
